A study of Homo sapiens with 6 samples.

Results

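The transcripts described here are the expressed solute carriers, the SLC superfamily of transporters, in A549, a cell line from a human lung carcinoma with epithelial character. The members were chosen as protein-coding rows whose symbol has the form SLC, a family number, A and a member number, with a mean of at least 5 CPM (counts scaled to a common library total) over the 6 libraries. From 29122 genes in the count table, 322 rows matched the symbol, 144 reached 5 CPM, and 7 named carriers of glucose, lactate, cystine and amino acids (SLC2A1, SLC2A3, SLC16A3, SLC7A11, SLC7A5, SLC3A2 and SLC7A1) were left out by the rule. That left 137 members with 136 symbols from 39 families, since SLC25A10 is listed under 2 gene identifiers. Of the 137 members, 132 were classed here as transporters and 5 as named after a carrier without being one (SLC9A3R1, SLC9A3R2, SLC7A6OS, SLC2A4RG and SLC4A1AP). The classing followed the family, and transport was not shown for each of the 132. SLC27A5, for example, is described below by an enzyme activity. Because the mean CPM chose the members, their levels are given as a description. Just inside the limit lay SLC36A1 at 5.01 CPM and SLC9A2 at 5.06 CPM, and just outside lay SLC26A11 at 4.97 CPM and SLC2A13 at 4.62 CPM.

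Solute carriers are membrane proteins that move nutrients, ions, metals and metabolites across the plasma membrane and the membranes of organelles. They are grouped into numbered families by sequence, and a family usually handles related substrates. Some work as facilitators that let a substrate run down its gradient, others couple uptake to sodium or protons, and others exchange a substrate on each side. In lung epithelial and tumour cells they set the supply of amino acids, sugars, choline, metals and vitamins.

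The BCLAF1-depleted cells were transduced stably with a lentiviral short hairpin RNA against BCLAF1, which codes for a protein of the nucleus that takes part in transcription and in the handling of RNA. The control cells carried a lentiviral hairpin against firefly luciferase, a gene that human cells lack, so all libraries come from transduced cells. Each group has 3 libraries of polyadenylated RNA, sequenced with strand direction kept. The labels do not say how many hairpin sequences were used nor whether each replicate was a culture of its own, and p-values therefore rest on a between-library spread that may be technical. In bulk RNA, fewer cells expressing a gene and less RNA per cell cannot be told apart.

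BCLAF1 itself had 39.0, 35.7 and 53.1 CPM in replicates 1 to 3 of the BCLAF1-depleted group, against 211.1, 199 and 203.2 CPM in control replicates 1 to 3, a log2 fold change of -2.26 ± 0.16 (SE, adjusted p = 2.31e-05). Here and below, gene levels are CPM after TMM scaling, fold changes compare BCLAF1-depleted with control libraries on the log2 scale (± SE, n = 3 per group), and adjusted p-values are from edgeR's quasi-likelihood test with Benjamini-Hochberg adjustment over 15907 genes, called under 0.05. Library totals were 33409158 to 40820922 counts in the BCLAF1-depleted group and 41019185 to 43928927 in the control group, where 3 counts equal 0.0683 to 0.0898 CPM before scaling, for counting error only. Of 7 epithelial markers, the keratins KRT7, KRT8 and KRT18 were abundant (KRT7 at 2435 to 2884 CPM in BCLAF1-depleted and 2238 to 2401 CPM in control libraries) and EPCAM and CDH1 were present, none of them past the threshold, whereas KRT19 and CLDN4 reached at most 0.832 CPM, KRT19 being called higher (1.13, adjusted p = 0.0495). The 7 alveolar markers in the table summed to 1.23 to 1.39 CPM in BCLAF1-depleted and 0.561 to 0.879 CPM in control libraries, with SFTPB, SFTPC and NKX2-1 at most at 0.235 CPM and SFTPD called higher (1.02, adjusted p = 0.0481). The 5 immune markers summed to 0.855 to 2.13 CPM in depleted and 0.564 to 1.77 CPM in control libraries, and CD68, the 1 that was tested, did not pass (0.37, adjusted p = 0.612). The 4 endothelial markers summed to 2.16 to 2.85 CPM in depleted and 1.76 to 2.33 CPM in control libraries, with CDH5 called higher (1.20, adjusted p = 0.00822) and PECAM1 lower (-0.89, adjusted p = 0.0359). The 5 fibroblast markers summed to 14.8 to 16.8 CPM in depleted and 22.6 to 25.3 CPM in control libraries. Of these COL1A1, the most abundant, was called lower (-0.84, adjusted p = 0.00136), and the other 4 did not pass, at -0.35 to 0.91. The part of such markers in the carrier results was not tested. BCLAF1-depleted replicate 1 lay apart on the first principal component of all tested genes, at 19.4 against 54.2 and 53.4 in the other depleted libraries and -43.6 to -40.9 in the controls, and replicate 3 had 19.3% of its counts from mitochondrially encoded genes against 10.5 to 11.4% in the other 5 libraries.

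Between 2 genes, levels can be set side by side only per length, on the authors' FPKM scale (mean of the 6 libraries). The most abundant carriers were SLC25A6 and SLC25A5, the adenine nucleotide translocators that exchange ADP for ATP across the inner mitochondrial membrane, at 229.9 and 158.4 FPKM. SLC39A7, which releases zinc from the endoplasmic reticulum, followed at 72.9 FPKM, and SLC1A5, a neutral amino acid exchanger that takes up glutamine, at 59.6 FPKM. The median member stood at 3.49 FPKM. In CPM, the 137 members summed to 4953, 5054 and 5110 in the BCLAF1-depleted libraries and to 5170, 5132 and 5174 in the control libraries, so on this scale the summed carrier level of each depleted library lay slightly below that of every control.

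Of the 137 members, 24 carriers rose and 24 fell after BCLAF1 depletion, and 89 did not pass the test. The 35.0% of members called lies close to the background of all tested genes, of which 35.8% were called, 17.8% higher and 18% lower. The same background shares stand beside the counts of each class and list below. Among tested protein-coding genes of at least 5 mean CPM, 39.6% were called. The median log2 fold change was -0.02 over the members and 0.02 over all tested genes, and the median size of a change was 0.32 over the members and 0.39 over all tested genes. The groups did not overlap for 32 carriers with higher and 41 with lower values in the depleted libraries, 53.3% of members against a background of 51.9%. For tested protein-coding genes of at least 5 mean CPM that share was 57.1%, and the median size of a change was 0.34. Some members, 3 in number, reached 5 CPM only through the BCLAF1-depleted group and 8 only through the control group. Among the 126 that reached it in both groups, 22 rose and 19 fell. Called members outside the 126 were SLC2A8 and SLC29A3, which rose, and SLC25A15, SLC16A4, SLC9A2, SLC23A1 and SLC5A3, which fell. The rule took these through the group where they are high, so their changes are given as a description and lend no support to a direction.

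**Figure D1:**
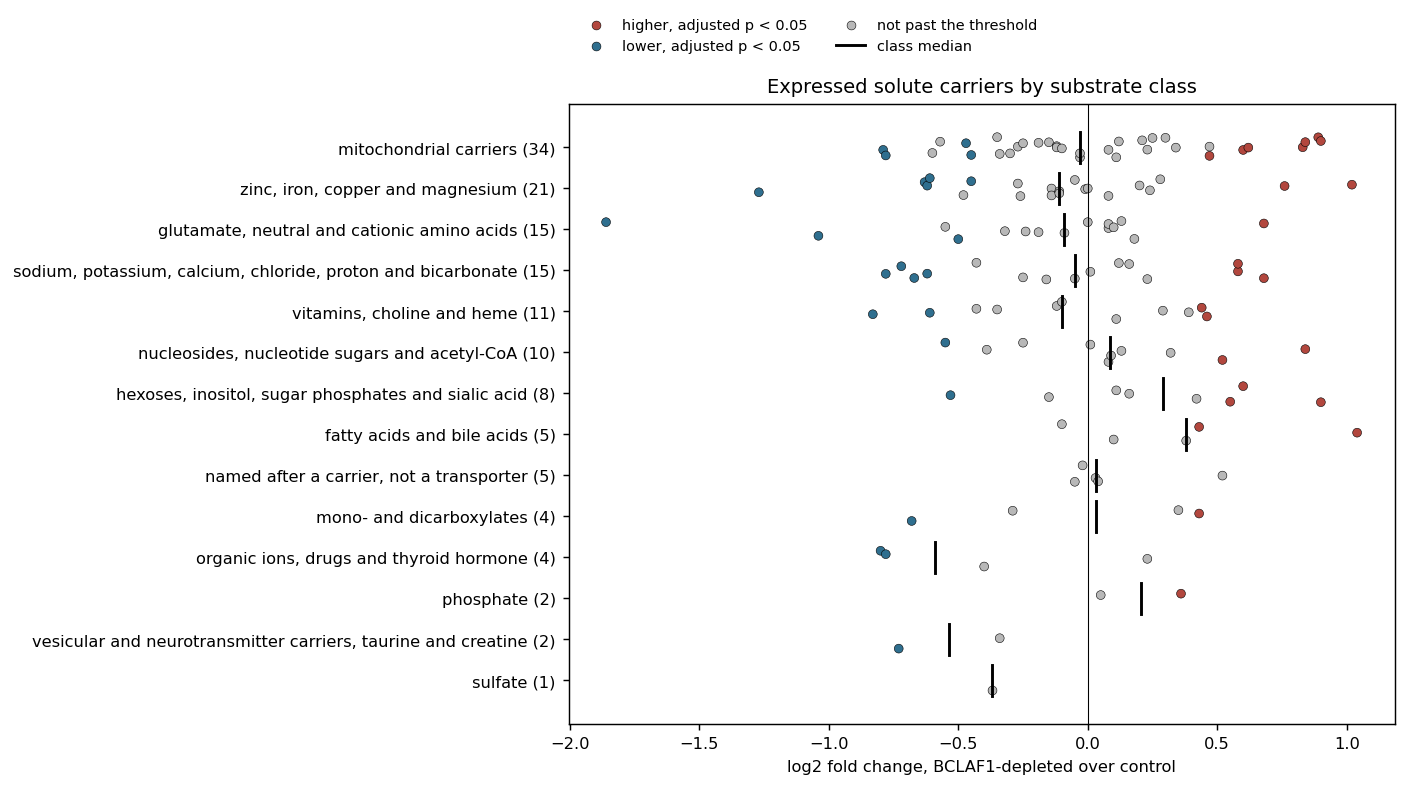
Log2 fold change (BCLAF1-depleted over control) of each of the 137 members, by substrate class with the number of members in brackets; points are genes, red and blue mark adjusted p under 0.05 (higher, lower), and black bars are class medians. Values run from -1.86 for SLC7A2 to 1.04 for SLC27A5, and calls in both directions stand side by side in most of the larger classes.

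The size of the response varied among the depleted libraries. The median SD of a member's log2 CPM was 0.235 in BCLAF1-depleted and 0.0898 in control libraries, and 117 of 137 members varied more in the depleted group. The wider spread was common to the whole series. Among all 15849 tested genes above 0 in every library, 13049 varied more in the depleted group, with median SDs of 0.271 and 0.103. Among the 48 called carriers, replicate 1 was the depleted library nearest to the controls for 32, replicate 3 for 11 and replicate 2 for 5. Leaving out replicate 1 raised the number of carriers called lower to 44 (29 higher), beside a background of 48.8% of all genes called. Leaving out control replicate 1, 2 or 3 lowered the counts to 10, 10 and 12 higher and 12, 10 and 12 lower carriers, with 18.1%, 18.1% and 19.7% of all genes called. Leaving out depleted replicate 3 gave 19 higher and 15 lower carriers, with 30.8% of all genes called. With library totals as the only scaling, which moved the median of all genes to -0.21, 7 carriers passed as higher (8.07% of all genes) and 31 as lower (23% of all genes). The 7 higher ones were SLC39A3, SLC39A4, SLC2A8, SLC25A28, SLC25A37, SLC25A39 and SLC29A3.

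Of the 48 called carriers, 16 passed whichever 1 library was left out (7 higher and 9 lower), and the 9 lower carriers also passed under every other alternative run. Some of those runs moved the median of all genes to -0.21 (library totals) or -0.14 (log2(FPKM + 1)). Of the 7 higher carriers, SLC25A37, SLC29A3 and SLC25A28 missed only in limma-trend on log2(FPKM + 1) without a filter (adjusted p 0.0531, 0.0752 and 0.0768). That run called 573 genes higher and 2057 lower. The share of all genes passing every run was not computed. The 9 lower carriers came from several families. SLC7A2 (ENSG00000003989.15), which takes up arginine, lysine and ornithine, fell most. It had 7.78, 5.98 and 5.39 CPM in BCLAF1-depleted replicates, against 22.4, 24.2 and 23.2 CPM in controls, a 3.64-fold lower level (-1.86 ± 0.15, adjusted p = 5.11e-05). The lowest control library lay far above the highest depleted library, and the controls differed little among themselves. SLC39A10 (chr2:195575977-195737702 in GRCh38, plus strand), a zinc importer of the plasma membrane, had 18.7, 7.95 and 14.02 CPM in depleted libraries against 33.8, 30.7 and 33.3 CPM in controls, 2.41-fold lower (-1.27 ± 0.24, adjusted p = 0.00433). SLC7A7 (chr14:22773222-22829820, minus strand), the light chain of an exchanger of cationic for neutral amino acids, had 14.2, 15.4 and 10.3 CPM in depleted libraries against 28.6, 29.4 and 23.99 CPM in controls (-1.04 ± 0.16, adjusted p = 0.00177). For both genes all depleted libraries lay below all controls, with replicate 2 lowest for SLC39A10 and replicate 3 lowest for SLC7A7.

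The other 6 fell by smaller amounts, none of them with overlapping groups. SLC44A1 (chr9:105244622-105439171, plus strand), which carries choline for phospholipid synthesis, had 37.3, 30.9 and 26.7 CPM in BCLAF1-depleted and 56.1, 55.3 and 56.9 CPM in control libraries (-0.83 ± 0.14, adjusted p = 0.00219). SLC22A3 (chr6:160348268-160452581, plus strand), an organic cation carrier that clears monoamines, had 26.1, 19.4 and 28.2 CPM in depleted libraries against 42.3, 42.4 and 42.2 CPM in controls (-0.78 ± 0.15, adjusted p = 0.00365). Its relative SLC22A23 (chr6:3268962-3457022, minus strand), without a settled substrate, had 9.21, 8.68 and 8.38 CPM in depleted libraries against 16.5, 14.2 and 15.0 CPM in controls (-0.80 ± 0.13, adjusted p = 0.00178). The depleted libraries of SLC22A23 spread less than its controls, unlike those of most members. SLC12A7 (chr5:1050376-1112035, minus strand), a potassium-chloride cotransporter that lets swollen cells lose salt, had 21.3, 16.3 and 15.9 CPM in depleted libraries against 30.5, 31.7 and 29.6 CPM in controls (-0.78 ± 0.14, adjusted p = 0.00305). SLC6A8 (chrX:153688099-153696593, plus strand), which takes up creatine, had 8.15, 7.68 and 10.02 CPM in depleted libraries against 14.2, 13.3 and 15.5 CPM in controls (-0.73 ± 0.14, adjusted p = 0.00484). SLC39A13 (chr11:47407132-47416501, plus strand), which moves zinc from intracellular vesicles to the cytosol, had 10.9, 9.36 and 10.5 CPM in depleted libraries against 15.5, 15.7 and 15.7 CPM in controls (-0.61 ± 0.12, adjusted p = 0.00526).

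**Figure D2:**
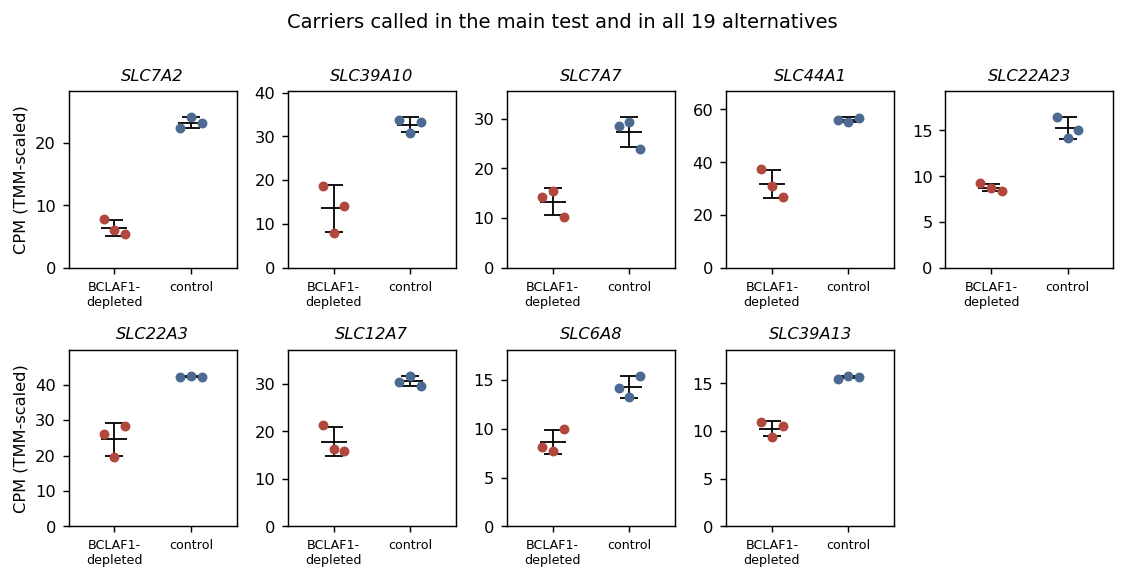
CPM (TMM-scaled, linear axes from 0) of the 9 carriers that passed in the main test and in all 19 alternatives; points are the 3 BCLAF1-depleted (left, red) and 3 control (right, blue) libraries, bars are mean ± SD. In each panel all depleted points lie below all control points, from 5.39 to 7.78 against 22.4 to 24.2 CPM for SLC7A2.

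Metal carriers formed a class of 21 members, of which 2 rose and 5 fell (median -0.11). Zinc makes up most of it. Members of the SLC30 family move zinc out of the cytosol, into organelles or out of the cell, and members of the SLC39 family move zinc into the cytosol. All 5 expressed SLC30 members had negative log2 fold changes (-0.63 to -0.14, median -0.45) and 3 of them fell, whereas the 11 SLC39 members split, with 2 rising, 2 falling and a median of -0.01. The summed SLC30 level was 158.5, 112.5 and 101.1 CPM in BCLAF1-depleted libraries and 177.2, 174.9 and 165.8 CPM in control libraries, while the summed SLC39 level overlapped (581.4 to 616.3 CPM in BCLAF1-depleted, 584.8 to 616.3 CPM in control libraries).

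SLC30A1, the zinc exporter of the plasma membrane, had 52.6, 37.2 and 29.8 CPM in BCLAF1-depleted and 63.3, 60.3 and 61.9 CPM in control libraries (-0.63 ± 0.18, adjusted p = 0.0233). SLC30A9, a mitochondrial zinc carrier, had 45.8, 26.2 and 28.1 CPM in depleted libraries against 55.9, 51.3 and 47.3 CPM in controls (-0.62 ± 0.20, adjusted p = 0.0329). In both, depleted replicate 1 lay nearest to the controls, and no depleted library reached the lowest control. SLC30A6, which loads zinc into the Golgi, had 9.41, 9.85 and 7.98 CPM in depleted libraries against 11.7, 13.9 and 11.6 CPM in controls (-0.45 ± 0.14, adjusted p = 0.0346). SLC30A5, its partner in the Golgi, did not pass at -0.14 (adjusted p = 0.503), nor did SLC30A7 at -0.27 (adjusted p = 0.154). Without depleted replicate 1 all 5 SLC30 members passed as lower, in a run that called 25.8% of all genes lower. With the trend of length and GC content removed none did (adjusted p 0.0514, 0.0807 and 0.217 for SLC30A1, SLC30A9 and SLC30A6). Their 3 calls were also lost without any 1 control library (adjusted p 0.061 to 0.168), SLC30A1 without depleted replicate 2 (0.0839), SLC30A9 without depleted replicate 2 (0.116) or 3 (0.0986) and SLC30A6 without depleted replicate 3 (0.0782).

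On the importer side SLC39A10 and SLC39A13 fell, as given above, and 2 others rose. SLC39A4, the zinc importer of the gut whose loss causes acrodermatitis enteropathica, had 15.9, 23.2 and 33.3 CPM in BCLAF1-depleted and 12.0, 13.8 and 9.94 CPM in control libraries (1.02 ± 0.24, adjusted p = 0.0101). SLC39A3, another importer of the plasma membrane, had 17.1, 24.8 and 21.1 CPM in depleted libraries against 13.4, 11.3 and 12.3 CPM in controls (0.76 ± 0.15, adjusted p = 0.00538). Both rose in every depleted library, least in replicate 1. The SLC39A4 call was lost without control replicate 3 (adjusted p = 0.0514), and its exons overlap those of AC233992.3 on the opposite strand. SLC39A14, which also carries iron and manganese, averaged 55.5 CPM in depleted and 77.6 CPM in control libraries without passing (-0.48, adjusted p = 0.072). The abundant SLC39A7, SLC39A1 and SLC39A6 had log2 fold changes of 0.08, 0.20 and -0.01. Outside zinc, the copper importer SLC31A1 (-0.11), the iron carrier SLC11A2 (0.24) and the 3 magnesium carriers of the SLC41 family (-0.26 to 0.00) did not pass. Without depleted replicate 1 the metal class counted 2 higher and 9 lower, beside 23% higher and 25.8% lower of all genes.

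**Figure D3:**
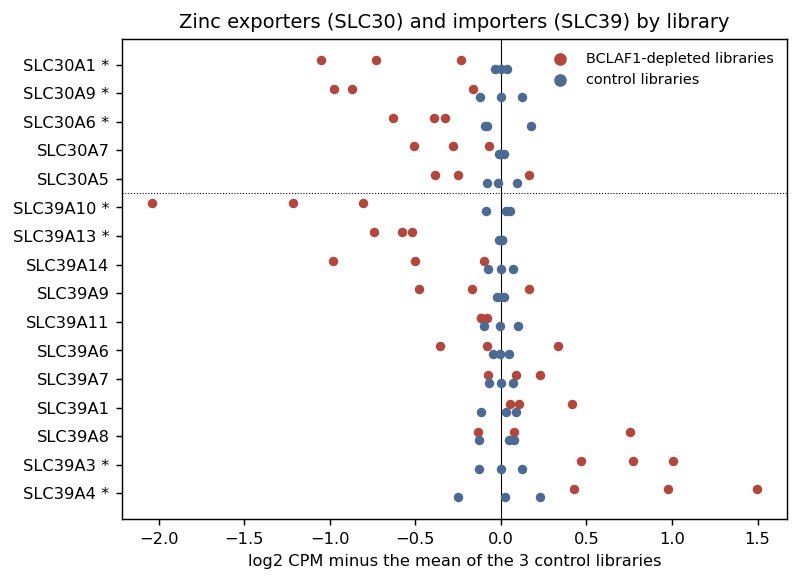
Log2 CPM of each SLC30 and SLC39 member minus the mean of its 3 control libraries; red points are BCLAF1-depleted libraries, blue points below them are control libraries, and an asterisk marks adjusted p under 0.05. SLC39A10 lies farthest to the left and SLC39A4 farthest to the right, and most SLC30 points of the depleted libraries lie left of 0.

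Since SLC30A1 is a textbook target of the zinc-sensing factor MTF1, which binds metal response elements, RefSeq promoter windows (GRCh38.p14, 250 bases before to 50 after the annotated start) were searched for the element's core TGCNCNC on both strands, where N is any base. Of the 136 member symbols, 111 had a window, and 68 of those (61.3%) held the core, against 55.9% of all 35116 windows. Among called carriers with a window, 11 of 18 higher and 16 of 20 lower ones held it, leaving out SLC25A10. That symbol was counted once, under its entry that was not called, and its window held 2 cores. The core is frequent in windows of this length, and a match is not evidence of binding. Starts other than the RefSeq one were not searched. Windows of 4 called zinc carriers are printed below 5′ to 3′ on the coding strand, with the core in capitals (as GNGNGCA where it lies on the other strand), to show a gene with more than 1 core, 2 with a single core that moved in opposite directions, and the largest change with none. They lie at chr1:211579112-211579411 (minus strand) for SLC30A1, chr2:32165614-32165913 (plus) for SLC30A6, chr19:2740027-2740326 (minus) for SLC39A3 and chr2:195656708-195657007 (plus) for SLC39A10.
SLC30A1: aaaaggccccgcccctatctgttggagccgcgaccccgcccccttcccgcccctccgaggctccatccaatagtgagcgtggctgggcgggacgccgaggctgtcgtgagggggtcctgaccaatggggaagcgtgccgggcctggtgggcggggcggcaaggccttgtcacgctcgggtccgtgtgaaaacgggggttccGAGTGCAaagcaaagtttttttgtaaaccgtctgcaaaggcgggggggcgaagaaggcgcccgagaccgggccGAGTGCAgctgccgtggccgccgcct
SLC30A6: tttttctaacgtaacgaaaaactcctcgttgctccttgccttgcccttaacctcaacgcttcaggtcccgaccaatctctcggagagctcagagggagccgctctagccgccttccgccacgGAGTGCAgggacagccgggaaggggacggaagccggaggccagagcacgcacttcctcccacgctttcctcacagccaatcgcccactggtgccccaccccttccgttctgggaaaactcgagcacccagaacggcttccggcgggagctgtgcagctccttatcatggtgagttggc
SLC39A3: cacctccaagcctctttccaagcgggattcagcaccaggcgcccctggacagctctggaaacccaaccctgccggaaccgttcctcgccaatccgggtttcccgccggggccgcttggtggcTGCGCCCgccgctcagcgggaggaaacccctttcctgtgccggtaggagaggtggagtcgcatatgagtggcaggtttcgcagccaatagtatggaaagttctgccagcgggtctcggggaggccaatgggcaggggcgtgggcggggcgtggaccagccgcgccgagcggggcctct
SLC39A10: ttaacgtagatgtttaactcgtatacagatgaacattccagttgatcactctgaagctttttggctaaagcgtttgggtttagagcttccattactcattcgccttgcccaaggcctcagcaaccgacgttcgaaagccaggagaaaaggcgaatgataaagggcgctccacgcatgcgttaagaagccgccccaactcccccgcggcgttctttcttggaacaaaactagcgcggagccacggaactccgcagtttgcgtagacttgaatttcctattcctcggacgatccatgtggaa

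SLC30A1 held 2 cores, the second near the end of the window, SLC30A6 and SLC39A3 held 1 each, and SLC39A10, which fell by 1.27 on the log2 scale, held none in the window searched. That SLC39A10 window (from 195656708) lies downstream of the gene start given above (195575977), which was not searched. The other elements searched gave these shares. The amino acid response element TGATGNAA was in 3.6% of carrier and 3.62% of all windows, the antioxidant response element TGACNNNGC in 18.9% of carrier and 13.3% of all windows, and CACGTG in 11.7% of carrier and 7.26% of all windows.

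Amino acid carriers numbered 15, of which 1 rose and 3 fell (median -0.09). Beside SLC7A2 and SLC7A7, the sodium-coupled glutamine carrier SLC38A1 fell, with 93.6, 72.2 and 73.4 CPM in BCLAF1-depleted and 121, 118 and 100.2 CPM in control libraries (-0.50 ± 0.14, adjusted p = 0.0218). SLC43A2, a facilitator for large neutral amino acids such as leucine, rose to 10.6, 11.4 and 9.59 CPM in depleted libraries, against 7.11, 6.40 and 6.24 CPM in controls (0.68 ± 0.14, adjusted p = 0.0054). Neither gene's groups overlapped. The abundant exchanger SLC1A5 had 234, 262 and 206 CPM in depleted libraries, spread on both sides of its 219.7, 224.8 and 211 CPM in controls (0.10 ± 0.13, adjusted p = 0.595). SLC38A2, a close relative of SLC38A1 that responds to amino acid shortage, averaged 64.4 CPM in depleted and 64.3 CPM in control libraries (0.00, adjusted p = 0.996). The SLC38A1 call was lost without control replicate 1 (adjusted p = 0.101) or 2 (0.0911), without depleted replicate 2 (0.0671) and with the length and GC trend removed (0.163), and that of SLC43A2 with scaling by library totals (0.0938). Without depleted replicate 1 the class counted 1 higher and 5 lower, beside 23% higher and 25.8% lower of all genes.

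The SLC25 family, classed here as mitochondrial carriers, formed the largest class with 34 members, of which 7 rose and 4 fell (median -0.03). Most of its members, though not all, lie in the inner mitochondrial membrane. Among those that rose were SLC25A37 and SLC25A28, the mitoferrins that bring iron to the matrix for heme and iron-sulfur clusters. SLC25A37 had 25.2, 32.6 and 27.5 CPM in BCLAF1-depleted and 15.4, 15.9 and 14.7 CPM in control libraries (0.89 ± 0.13, adjusted p = 0.00115). SLC25A28 had 15.8, 19.1 and 27.4 CPM in depleted libraries against 12.7, 11.8 and 10.4 CPM in controls (0.84 ± 0.19, adjusted p = 0.00946). Each passed whichever library was left out, and depleted replicate 1 was lowest of the depleted libraries for both. SLC25A39, an importer of glutathione, had 89.1, 126 and 180.5 CPM in depleted libraries against 75.2, 78.2 and 70.0 CPM in controls (0.83 ± 0.22, adjusted p = 0.0157), and SLC25A38, which brings in glycine for heme synthesis, had 30.3, 37.95 and 35.3 CPM in depleted libraries against 25.3, 23.95 and 25.5 CPM in controls (0.47 ± 0.12, adjusted p = 0.0155). SLC25A39 differed most between depleted libraries, and its highest value was in replicate 3, the library with 19.3% mitochondrially encoded counts. The part of that share in the result was not tested.

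A carrier of a cofactor and one of dicarboxylates rose as well. SLC25A26, which imports S-adenosylmethionine, had 7.38, 8.71 and 6.72 CPM in BCLAF1-depleted and 4.96, 4.89 and 4.97 CPM in control libraries (0.62 ± 0.15, adjusted p = 0.0113). Its lowest depleted library lay above its highest control. SLC25A10, the dicarboxylate carrier, appears under 2 overlapping identifiers on chromosome 17: ENSG00000183048.10 passed (0.90 ± 0.27, adjusted p = 0.0258), with 18.5, 42.2 and 20.7 CPM in depleted libraries against 14.2, 15.3 and 14.2 CPM in controls, and ENSG00000262660.1 did not (-0.12, adjusted p = 0.545). How reads were shared between the overlapping entries was not stated, so this gene is uncertain. In the entry that passed, depleted replicate 2 stood far above the other libraries.

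The 4 mitochondrial carriers that fell were led by SLC25A24, a calcium-regulated carrier of ATP-magnesium and phosphate, with 15.7, 9.27 and 7.98 CPM in BCLAF1-depleted and 19.5, 17.5 and 19.9 CPM in control libraries (-0.79 ± 0.22, adjusted p = 0.0203). SLC25A15, the ornithine carrier of the urea cycle, had 5.62, 3.96 and 2.99 CPM in depleted libraries against 6.27, 8.19 and 7.21 CPM in controls (-0.78 ± 0.22, adjusted p = 0.0214). SLC25A5 had 229, 177 and 159.8 CPM in depleted libraries against 256, 244.5 and 282 CPM in controls (-0.47 ± 0.16, adjusted p = 0.0416). In all 3, depleted replicate 1 lay nearest to the controls. SLC25A15 was a member only through the control group. SLC25A22, a glutamate carrier, had 9.95, 11.1 and 8.11 CPM in depleted libraries against 13.4, 13.6 and 13.1 CPM in controls (-0.45 ± 0.14, adjusted p = 0.033). The sister translocator SLC25A6 had 460.1, 592.5 and 508 CPM in depleted libraries around its 548, 544 and 579.6 CPM in controls and did not pass (-0.10 ± 0.14, adjusted p = 0.619). SLC25A3, the phosphate carrier, did not pass either (-0.03, adjusted p = 0.908).

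Without depleted replicate 1 the mitochondrial class counted 10 higher and 10 lower, beside 23% higher and 25.8% lower of all genes. Calls lost without control replicate 1 included those of SLC25A38 (adjusted p = 0.0689), SLC25A26 (0.0547), SLC25A39 (0.0524), SLC25A10 (0.0724), SLC25A24 (0.06), SLC25A5 (0.115) and SLC25A22 (0.106). Without control replicate 2 those of SLC25A38 (0.0869), SLC25A26 (0.0566), SLC25A10 (0.0615), SLC25A15 (0.0841), SLC25A5 (0.0952) and SLC25A22 (0.112) were lost. Without control replicate 3 those of SLC25A38 (0.0577), SLC25A39 (0.0684), SLC25A10 (0.0868), SLC25A24 (0.071), SLC25A15 (0.0658), SLC25A5 (0.148) and SLC25A22 (0.0885) were lost. Leaving out depleted replicate 2 or 3 ended the calls of SLC25A24 (0.0838 and 0.0571), SLC25A15 (0.0737 and 0.0528) and SLC25A5 (0.108 and 0.0817), and replicate 3 that of SLC25A22 (0.0671). Removing the length and GC trend ended that of SLC25A38 (0.065).

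**Figure D4:**
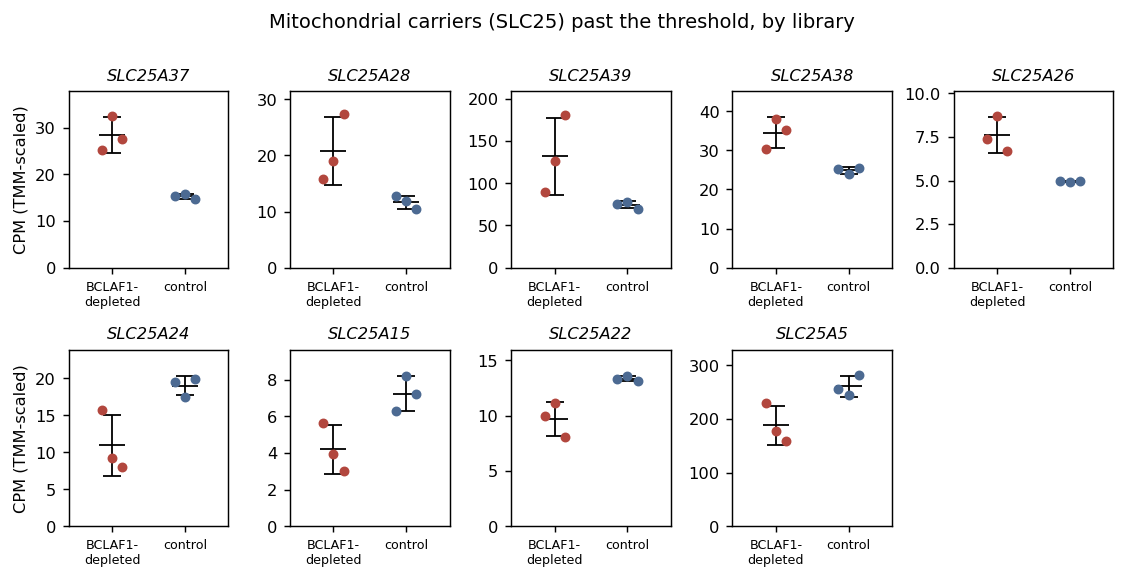
CPM (TMM-scaled, linear axes from 0) of 9 called SLC25 carriers, leaving out SLC25A10, which has 2 entries; points are the 3 BCLAF1-depleted (left, red) and 3 control (right, blue) libraries, bars are mean ± SD. The depleted libraries lie above the controls for the first 5 carriers and below them for the last 4, and they spread most for SLC25A39 (89.1 to 180.5 CPM).

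Carriers of sodium, potassium, calcium, chloride, protons and bicarbonate numbered 15, of which 3 rose and 4 fell (median -0.05). Of the potassium-chloride cotransporters, SLC12A7 fell as given above, whereas SLC12A4, of the same subgroup, did not pass at 0.16 (adjusted p = 0.409). SLC12A2, the sodium-potassium-chloride cotransporter that brings chloride in, averaged 68.3 CPM in depleted and 91.9 CPM in control libraries and lay just outside the threshold (-0.43, adjusted p = 0.0522). SLC12A9, a relative without a settled substrate, rose to 11.1, 14.6 and 15.6 CPM in depleted libraries, against 8.19, 8.75 and 8.86 CPM in controls (0.68 ± 0.15, adjusted p = 0.00845).

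Among sodium-proton exchangers, which regulate pH, SLC9A2 of the plasma membrane had 5.05, 2.82 and 3.48 CPM in BCLAF1-depleted and 5.59, 6.11 and 6.40 CPM in control libraries (-0.67 ± 0.21, adjusted p = 0.0313). Its depleted replicate 1 lay close under the lowest control, and SLC9A2 was a member only through the control group. The sodium-bicarbonate cotransporter SLC4A7 had 16.1, 23.4 and 23.6 CPM in depleted libraries against 12.8, 13.5 and 16.0 CPM in controls (0.58 ± 0.17, adjusted p = 0.0241), its lowest depleted library barely above its highest control. SLC24A1, a potassium-dependent sodium-calcium exchanger, had 16.6, 17.8 and 28.9 CPM in depleted libraries against 14.1, 14.3 and 13.95 CPM in controls (0.58 ± 0.20, adjusted p = 0.0425). The abundant chloride-bicarbonate exchanger SLC4A2 averaged 164 CPM in depleted and 163 CPM in control libraries (0.01, adjusted p = 0.956).

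In this class SLC12A7 passed under every alternative. The call of SLC12A9 was lost with library totals alone (adjusted p = 0.0737). Those of SLC9A2 and SLC24A1 were lost without any 1 control (0.0666 to 0.123) and without depleted replicate 3 (0.0793 for SLC9A2 and 0.0914 for SLC24A1, which then had a log2 fold change of 0.28). The SLC9A2 call was also lost without depleted replicate 2 (0.0891, with SLC24A1 at 0.05) and with the length and GC trend removed (0.0577). The SLC4A7 call was lost without control replicate 1 (0.103) or 2 (0.0925) and without depleted replicate 2 (0.0818) or 3 (0.0707).

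Vitamin, choline and heme carriers numbered 11, of which 2 rose and 2 fell (median -0.10). SLC23A1, a sodium-coupled vitamin C carrier, fell to 4.39, 5.72 and 4.38 CPM in depleted libraries, against 7.94, 7.67 and 6.59 CPM in controls (-0.61 ± 0.17, adjusted p = 0.0173). The other vitamin C carrier, SLC23A2, averaged 87.5 CPM in depleted and 112 CPM in control libraries without passing (-0.35, adjusted p = 0.0516), although its groups did not overlap. Of the choline carriers, SLC44A1 fell as given above, SLC44A2 had -0.43 (adjusted p = 0.0697) and SLC44A3 had 0.39 (adjusted p = 0.219). SLC52A2, a riboflavin carrier, rose to 35.5, 39.0 and 33.0 CPM in depleted libraries, against 26.2, 25.7 and 26.0 CPM in controls (0.46 ± 0.11, adjusted p = 0.0119). SLC48A1, which exports heme from endosomes and lysosomes to the cytosol, rose to 20.7, 22.0 and 16.5 CPM in depleted libraries, against 13.9, 14.6 and 15.0 CPM in controls (0.44 ± 0.14, adjusted p = 0.0308). The folate carriers SLC19A1 and SLC46A1 did not pass (0.29 and -0.10). Of the called genes in this class, SLC23A1 was a member only through the control group. Without any 1 control library the calls of SLC52A2 (0.0552 to 0.0705) and SLC48A1 (0.0876 to 0.13) were lost, SLC23A1 without control replicate 1 (0.0797) or 2 (0.0705), and SLC48A1 without depleted replicate 2 (0.0802). Without depleted replicate 1 the class counted 3 higher and 5 lower, beside 23% higher and 25.8% lower of all genes.

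The 8 carriers of hexoses, inositol, sugar phosphates and sialic acid included 3 that rose and 1 that fell (median 0.29). Of these, SLC2A8 was a member only through the BCLAF1-depleted group and SLC5A3 only through the control group. SLC2A8, a glucose carrier of intracellular membranes and the only SLC2 member here, had 5.27, 9.68 and 9.03 CPM in BCLAF1-depleted and 4.37, 3.45 and 5.01 CPM in control libraries (0.90 ± 0.24, adjusted p = 0.016). SLC37A1, a glucose-6-phosphate carrier of the endoplasmic reticulum, had 9.89, 10.1 and 9.62 CPM in depleted libraries against 6.27, 6.49 and 6.72 CPM in controls (0.60 ± 0.13, adjusted p = 0.00656), with little spread in either group. SLC17A5, which exports sialic acid from lysosomes, had 7.64, 7.86 and 8.97 CPM in depleted libraries against 4.53, 5.46 and 6.67 CPM in controls (0.55 ± 0.17, adjusted p = 0.0304). SLC5A3, the sodium-coupled inositol carrier, had 5.07, 3.61 and 3.54 CPM in depleted libraries against 5.95, 5.82 and 5.93 CPM in controls (-0.53 ± 0.18, adjusted p = 0.0386), and its exons are shared with MRPS6 on the same strand, so its counts are uncertain. Calls were lost without control replicate 2 for SLC2A8 (0.0679), SLC17A5 (0.106) and SLC5A3 (0.105), without control replicate 1 for SLC17A5 (0.147) and SLC5A3 (0.115), and without control replicate 3 for SLC5A3 (0.106). Leaving out depleted replicate 2 or 3 ended the calls of SLC2A8 (0.069 and 0.0512), SLC17A5 (0.0574 and 0.0771) and SLC5A3 (0.103 and 0.0915), and removing the length and GC trend that of SLC5A3 (0.224).

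Among 10 carriers of nucleosides, nucleotide sugars and acetyl-CoA, 2 rose and 1 fell (median 0.09), all 3 in the equilibrative nucleoside family. Of these, SLC29A3 was a member only through the BCLAF1-depleted group. SLC29A3, the lysosomal nucleoside carrier, had 6.56, 6.07 and 7.61 CPM in BCLAF1-depleted and 3.71, 3.54 and 4.03 CPM in control libraries (0.84 ± 0.16, adjusted p = 0.00368). SLC29A1, the main nucleoside carrier of the plasma membrane, had 16.3, 19.2 and 23.8 CPM in depleted libraries against 12.9, 13.6 and 14.6 CPM in controls (0.52 ± 0.15, adjusted p = 0.0239). SLC29A4, which carries monoamines, had 4.82, 5.81 and 6.44 CPM in depleted libraries against 8.92, 7.64 and 8.46 CPM in controls (-0.55 ± 0.16, adjusted p = 0.021). None of the 5 nucleotide sugar carriers of the SLC35 family passed in edgeR (-0.39 to 0.32), and 1 had an unadjusted p under 0.05 with 0 called by DESeq2. SLC29A3 passed whichever library was left out, SLC29A1 and SLC29A4 were lost without any 1 control (0.0515 to 0.104), and SLC29A1 also without depleted replicate 2 (0.0503) or 3 (0.0613).

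The remaining classes are small. Of 5 carriers of fatty and bile acids, 2 rose and none fell (median 0.38, with 0 lower at an unadjusted p under 0.05 and 0 by DESeq2). SLC27A5, which activates bile acids and long fatty acids with coenzyme A in liver, had the largest rise of all members, with 10.01, 17.3 and 6.75 CPM in BCLAF1-depleted and 6.02, 5.93 and 4.66 CPM in control libraries (1.04 ± 0.29, adjusted p = 0.0204). Its depleted libraries were widely spread, with replicate 3 close to the controls, and its exons overlap ZNF446 on the opposite strand. SLC10A3, a relative of bile acid carriers without a settled substrate, had 12.4, 16.2 and 16.4 CPM in depleted libraries against 12.2, 10.3 and 11.0 CPM in controls (0.43 ± 0.15, adjusted p = 0.0449). The SLC27A5 call was lost without control replicate 2 (0.0502) or 3 (0.0855) and without depleted replicate 2 (0.0661), which moved its log2 fold change to 0.60. The SLC10A3 call was lost without any 1 control (0.0875 to 0.182), without depleted replicate 2 (0.111) or 3 (0.108) and with the length and GC trend removed (0.29).

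Of the 4 monocarboxylate carriers, SLC16A5 rose to 32.5, 28.6 and 26.4 CPM in depleted libraries, against 21.5, 22.4 and 21.3 CPM in controls (0.43 ± 0.12, adjusted p = 0.0212), and SLC16A4 fell to 4.87, 3.20 and 4.65 CPM in depleted libraries, against 6.2, 7.31 and 6.88 CPM in controls (-0.68 ± 0.18, adjusted p = 0.0181). SLC16A4 was a member only through the control group. The lactate and pyruvate carrier SLC16A1 averaged 65.8 ± 12.7 CPM in depleted and 51.8 ± 2.64 CPM in control libraries (SD) and did not pass (0.35, adjusted p = 0.0891), although its groups did not overlap. Of 4 carriers of organic ions, 2 fell, both SLC22 members described above, while the carnitine carrier SLC22A5 (0.23) and the drug exporter SLC47A1 (-0.40) did not pass. The phosphate carrier SLC20A1 rose to 53.5, 67.3 and 68.1 CPM in depleted libraries, against 49.2, 46.8 and 50.7 CPM in controls (0.36 ± 0.13, adjusted p = 0.047), and SLC20A2 did not pass (0.05). The taurine carrier SLC6A6 averaged 152.5 CPM in depleted and 193 CPM in control libraries (-0.34, adjusted p = 0.111), and the sulfate carrier SLC26A2 had -0.37 (adjusted p = 0.0838). None of the 5 genes that are only named after a carrier passed in edgeR (0 at an unadjusted p under 0.05, 0 by DESeq2), the nearest being SLC9A3R2, a scaffold protein, at 0.52 (adjusted p = 0.124). Calls were lost without any 1 control for SLC16A5 (0.0822 to 0.0981) and SLC20A1 (0.115 to 0.188), without control replicate 2 (0.0756) or 3 (0.0628) for SLC16A4, without depleted replicate 2 (0.107) or 3 (0.0941) for SLC20A1, and with the length and GC trend removed for SLC16A5 (0.117).

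Exons of 56 members overlap a gene on the opposite strand, and how the counting treated strand was not stated in the sources used here. Among the called members these include SLC22A23 (with PSMG4), SLC6A8 (PNCK), SLC12A9 (EPHB4), SLC24A1 (DENND4A), SLC16A4 (LAMTOR5-AS1), SLC29A4 (TNRC18), SLC37A1 (RSPH1), SLC48A1 (HDAC7 and RAPGEF3), SLC52A2 (FBXL6 and TMEM249), SLC25A5 (SLC25A5-AS1), SLC25A22 (PANO1), SLC25A26 (LRIG1), SLC27A5 (ZNF446), and SLC25A24 and SLC39A4 with genes known by clone name. Exons of 5 called members, SLC5A3, SLC39A3, SLC29A3, SLC25A10 and again SLC37A1, share bases with another gene on the same strand. Reads from these stretches cannot be told apart by gene.

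Fold changes in this comparison followed exon length. Over all tested genes the median was 0.35 on the log2 scale in the length quintile of the shortest genes and -0.19 in that of the longest, with 0.13, -0.03 and -0.12 in between. The members' medians in the same length bins were -0.11 (10 members), 0.27 (26), 0.08 (29), -0.12 (40) and -0.12 (32), so the 10 carriers of the shortest bin had a lower median than all genes of that length. Carriers that rose had a median exon length of 4736 bases, those that fell 5898 and those not called 5583. With the trend of length and GC content removed, 26 carriers passed as higher and 21 as lower, with 33.8% of all genes called, and 10 of the 48 calls were lost. They included SLC30A1, SLC30A6, SLC30A9, SLC38A1, SLC5A3, SLC9A2, SLC10A3, SLC16A5 and SLC25A38.

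**Figure D5:**
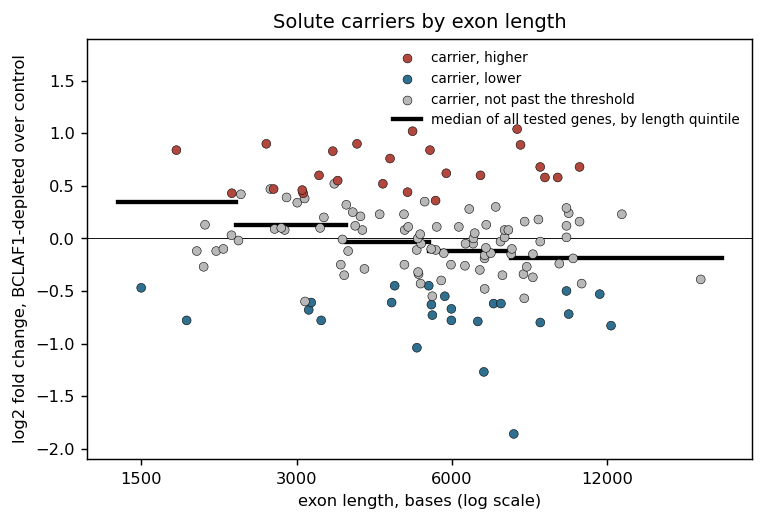
Log2 fold change (BCLAF1-depleted over control) of the members against their exon length in bases (log axis); red, blue and grey points are carriers called higher, lower and not called, and black bars are the medians of all tested genes in 5 length quintiles. The bars step down from 0.35 to -0.19, and called carriers of both directions lie at short and long lengths.

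Transport genes outside the members were taken from lists of related genes. Beside 35.8% of all tested genes, 30.5% were called among carriers under 5 CPM, 24.6% among carriers with other symbols and 26.7% among ABC transporters. Of 178 carrier rows under 5 CPM, 59 were tested, and 7 rose and 11 fell (median -0.10). The largest changes were in SLC6A3 (-2.68), the dopamine carrier, SLC6A14 (1.73), a broad amino acid carrier, and SLC1A1 (-1.54), a glutamate carrier, all below 4 CPM in every library. Of 57 tested carriers with other symbols, 6 rose and 8 fell (median 0.01). The organic anion carrier SLCO3A1 had 21.4, 23.5 and 27.4 CPM in BCLAF1-depleted and 8.51, 9.70 and 8.63 CPM in control libraries (1.43 ± 0.14, adjusted p = 0.000107). The sideroflexin SFXN3 fell (-1.37) and its relative SFXN2 rose (0.99). Of 30 tested ABC transporters, which pump substrates with ATP, 2 rose and 6 fell (median -0.15). ABCC4, an exporter of cyclic nucleotides and drugs, had 27.1, 12.1 and 17.1 CPM in depleted libraries against 42.3, 40.0 and 39.6 CPM in controls (-1.11 ± 0.24, adjusted p = 0.00649), and the drug exporter ABCG2 rose (0.69).

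Of 26 tested subunits and regulators of carriers, none rose in edgeR (0 at an unadjusted p under 0.05, 0 by DESeq2) and 6 fell (median -0.31). In all, 23.1% of them were called, beside 35.8% of all tested genes (17.8% higher and 18% lower). Without depleted replicate 1 they counted 1 higher and 15 lower, beside 23% higher and 25.8% lower of all genes. With the length and GC trend removed they counted 1 higher and 5 lower, beside 17.6% higher and 16.1% lower of all genes. SGK1, a kinase that keeps ion and nutrient carriers at the plasma membrane, had 27.9, 19 and 18.1 CPM in BCLAF1-depleted and 50.6, 56.1 and 57.4 CPM in control libraries (-1.33 ± 0.17, adjusted p = 0.000521). ACO1, whose protein serves as iron regulatory protein or as aconitase, had 25.3, 19.4 and 15.0 CPM in depleted libraries against 44.0, 42.5 and 41.5 CPM in controls (-1.10 ± 0.17, adjusted p = 0.0017). TXNIP, which holds back glucose uptake, fell at a low level, to 1.65, 0.997 and 1.02 CPM in depleted libraries, against 2.38, 3.50 and 2.72 CPM in controls (-1.22 ± 0.26, adjusted p = 0.00645). The sodium-potassium pump, whose gradient drives sodium-coupled carriers, had 9 tested genes, of which 3 rose and 5 fell (median -0.40). That is 88.9% called, beside 35.8% of all tested genes. Its regulators of the FXYD family moved both ways, with FXYD6 (-2.11) lower and FXYD7 (1.65) and FXYD3 (1.49) higher, at under 5 CPM in every library.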

How the data were processed

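RNA of 6 A549 libraries was selected with oligo(dT) and sequenced as directional libraries, per the labels' protocols. The deposited table holds raw read counts per gene, made by the authors, and a second deposited table holds the authors' FPKM values (fragments scaled by gene length and library size), used for levels between genes and in alternatives. TopHat2, bcl2fastq and edgeR are listed with build GRCh38 per the submitters' processing notes. The counting tool, its annotation and its treatment of strand were not stated in the sources used here, so reads of overlapping genes cannot be assigned with certainty. Groups and replicate numbers come from the labels. Sample names write "si", but the protocol describes hairpins and was followed.

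The test was edgeR 4.0.16 under R 4.3.3 (quasi-likelihood fit on counts, group as the only term, TMM scaling), on the 15907 of 29122 genes kept by filterByExpr (minimum count 10, minimum total 15), with Benjamini-Hochberg adjustment and a threshold of 0.05. All 137 members passed this filter. CPM for membership used library totals. Printed CPM are TMM-scaled. Exon lengths, GC content and gene positions came from GENCODE 29 on GRCh38 (15775 tested genes, 99.2%), matched by identifier. The trend correction was a smooth per library (mgcv 1.9.3, basis size 8). On counts simulated for this comparison (15697 genes, 50 changed per fold size), 82% of 0.5-fold, 16% of 0.667-fold, 24% of 1.5-fold and 70% of 2-fold changes were called, with 6 unchanged genes. Small changes were often missed in this simulation. It changed 200 genes in all, whereas 35.8% of tested genes were called in the data. The adjustment depends on the share of changed genes, so these rates cannot be carried over to the data.

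Alternatives were DESeq2 1.42.0 size factors and Wald test, library totals, 2 other filters, a replicate block, leaving out each library, limma 3.58.1 (voom, and limma-trend on log2(FPKM + 1) and log2(FPKM + 0.1)), the trend removed, and other member minimums. Some were added after seeing the data: the trend removed without BCLAF1-depleted replicate 1, class counts without that library, and the member list without genes named after a carrier or without SLC25A10.

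The members, classes and lists were chosen with earlier results of these data known. SLC4A1AP was put among genes that are no transporters after the files were seen. Genes were named by a rule: BCLAF1, the 10 largest higher and 10 largest lower changes among called members without overlap, up to 4 called members per class (or the 2 most abundant where none passed), the 4 most abundant members, the genes next to 5 CPM, and up to 3 called genes per other list. Every other called member and members not called were named after their values were seen. Some genes that the rule names are not reported here.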

Additional observations from a re-analysis of the deposited data

How the results depend on the processing

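Both directions of the carrier counts depended on the scaling and on single libraries. With library totals alone, 1283 genes and 7 carriers were higher. On log2(FPKM + 1) the counts were 1131 higher and 4453 lower genes with 4 higher and 39 lower carriers, on log2(FPKM + 0.1) 1126 and 4381 genes with 4 and 38 carriers, and on log2(FPKM + 1) without a filter 573 higher genes with 0 higher and 12 lower carriers. The median of all genes moved to -0.14 with log2(FPKM + 1) and to -0.25 with log2(FPKM + 0.1). The cause was not tested. Leaving out 1 library gave 1383 to 3741 higher and 1549 to 4195 lower genes, and 10 to 29 higher and 10 to 44 lower carriers. The smallest counts came without a control library. DESeq2 size factors, the stricter filter and the DESeq2 Wald test kept all 48 calls, and limma-voom lost those of SLC20A1 and SLC24A1. With no low-count filter 4 calls were lost. No carrier changed direction with a call under any alternative, and 45 of the 89 carriers that did not pass did so in at least 1. With a minimum of 10 CPM, 16 of 102 carriers were higher and 17 lower.

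Same-numbered libraries deviated together only weakly (r of 0.036, 0.0466 and 0.119), so the numbers are not taken as pairs, although each depleted library correlated best with the control of its own number. With the replicate block 25 carriers were higher and 31 lower (2886 and 3121 genes), and the calls of SLC10A3 (adjusted p = 0.0519) and SLC20A1 (0.0566) were not made. With the block and the trend removed 27 carriers were higher and 26 lower, beside 2856 higher (18%) and 2722 lower (17.1%) of all genes.

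At this depth 3 counts are under 0.1 CPM in every library. The depleted libraries varied more than the controls, and the fit gives both groups 1 dispersion per gene. The part of depth and of spread in the number of calls was not tested.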
